A study of Mus musculus with 24 samples.

Results

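The genes described here carry newly made secretory and membrane proteins into the endoplasmic reticulum (ER), cut their signal peptides, add N-glycans and move them on to the Golgi. They are 58 genes chosen by name from knowledge of the pathway, and every probe of the array whose gene name matched a member was taken, giving 114 of 56605 probes and 58 of 37074 gene names. Of these, 57 members were tested, among 20196 tested gene names. All 57 were well above background on all 24 arrays, so none entered through a high level in 1 group. The remaining member, the KDEL receptor Kdelr3, was well above background on only 1 of 24 arrays and was not tested.

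Whole liver was taken from male C57Bl6J mice of the third generation of breeding, 1 array per mouse, killed while fasting. In the HFoleic group (HFD_Cont in the sample labels, 8 mice) the control lineage, supplemented over the generations with high-oleic sunflower oil, was fed an obesogenic diet rich in fat and sucrose. The HFepa group (HFD_O3, 7 mice) received the same diet but came from a lineage whose supplement was an EPA-rich fish oil, EPA being eicosapentaenoic acid, an omega 3 fatty acid. The reference group (STD_Cont, 9 mice) came from the control lineage and was fed a low-fat diet. The EPA lineage on the low-fat diet was not analysed here, so lineage can be compared under the obesogenic diet only, and the age of the mice is not given in the sources used here.

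In liver, the hepatocytes that make albumin, clotting factors and lipoproteins depend on this route. The signal recognition particle (SRP) catches a signal peptide on the ribosome and docks at its receptor, the Sec61 channel with the translocon-associated protein (TRAP) complex takes the chain into the ER, signal peptidase cuts it, and the oligosaccharyltransferase attaches N-glycans. Cargo then leaves in COPII-coated vesicles, helped by cargo receptors, while COPI-coated vesicles and the KDEL receptors bring escaped ER proteins back. Many of these genes are known targets of the unfolded protein response, which adjusts the capacity of the ER to its load.

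Between 50.9% and 60.8% of probes per array were well above background, no spot was saturated, and across probes the correlation between mice sharing a group was 0.974 to 0.996. All 10 hepatocyte markers were well above background on all arrays. Reference replicate 5 stood apart in its bile duct markers (mean log2 level 9.36, against 7.30 to 8.04 in the other reference mice) and in its stellate cell markers (10.90, against 8.75 to 9.90). Without this array 9 members, all among the 10 called with it, passed the test of HFoleic against reference. As whole tissue was measured, fewer cells of a type and less RNA per cell cannot be told apart.

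The first comparison asked what the obesogenic diet changed in the oleic lineage. In HFoleic, 10 of 57 members rose and none fell, and they lay in 6 of the 10 roles: the channel subunits Sec61a1 and Sec61b, the TRAP subunit Ssr3, the signal peptidase subunits Sec11a and Spcs3, the glycosylation subunit Rpn1, the COPII coat subunit Sec23b and the cargo receptors Lman2, Tmed3 and Tmed10. The changes were small, from a log2 change of 0.14 (Tmed10) to one of 0.57 (Tmed3, 1.48-fold). Over all 57 tested members the median log2 change was 0.11 (range -0.24 to 0.57), against -0.01 over all tested genes, and 43 of 57 were higher by sign, against 48.4% of all genes. The share called higher was 17.5%, beside a background of 4.52% of tested genes called higher and 3.55% called lower. The test was limma with Benjamini-Hochberg adjustment over all 30007 probes and a threshold of 0.05, each gene read from its brightest probe. Unadjusted, 22 members had a p under 0.05, of which 19 were higher, against 12.1% of all genes higher and 10.2% lower.

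**Figure D1:**
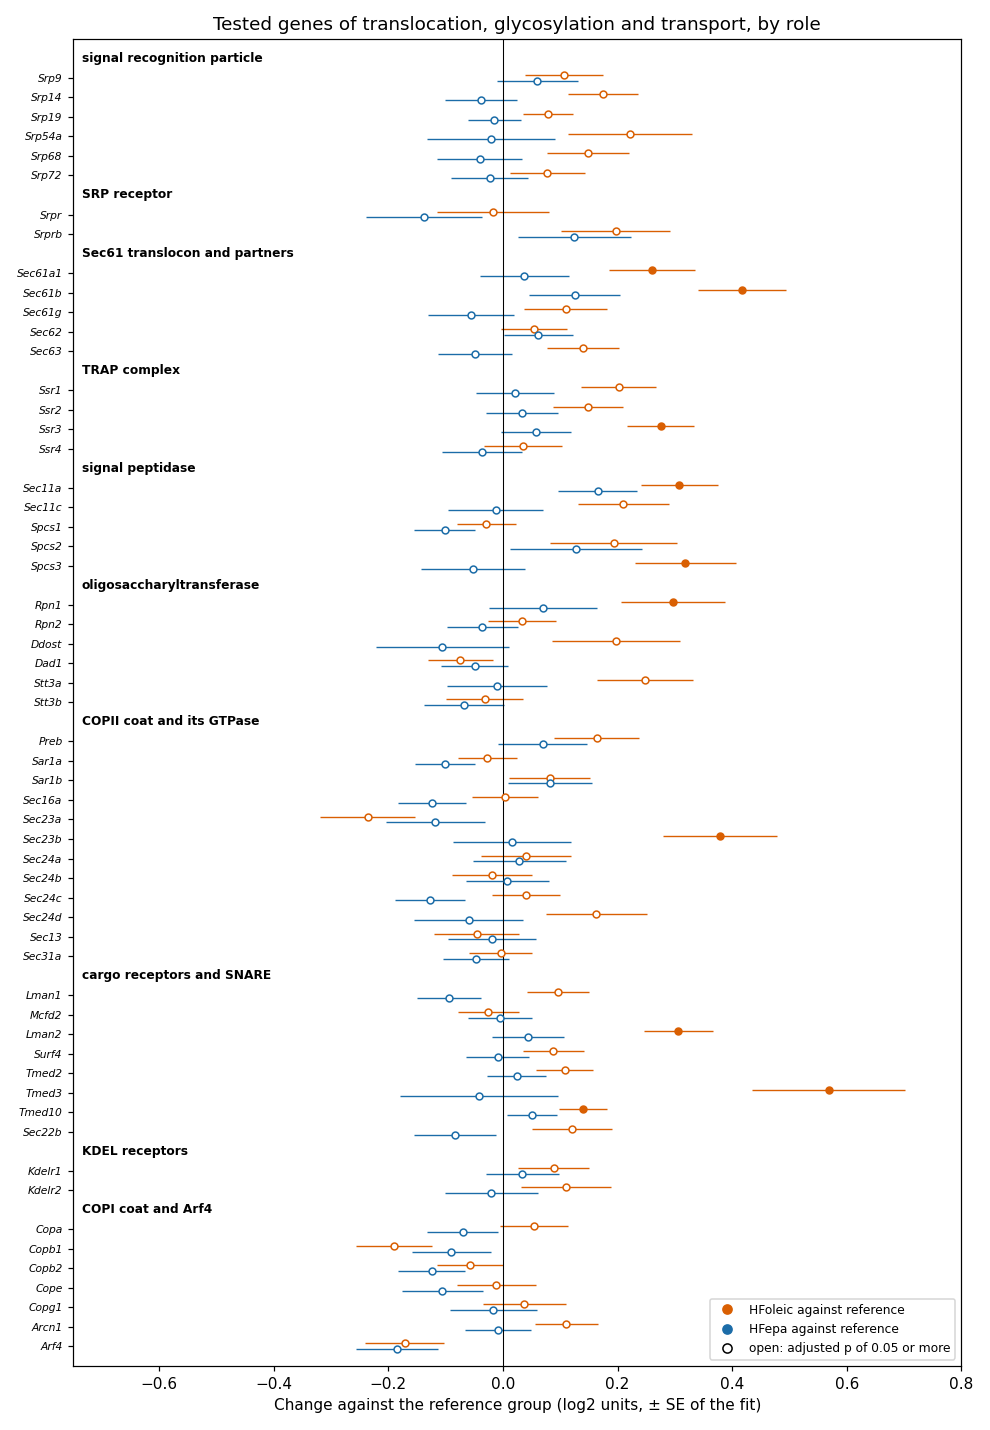
Change of the 57 tested genes against the reference group in log2 units (x axis) with the standard error of the fit, grouped by role, for HFoleic (orange) and HFepa (blue). Filled points passed an adjusted p of 0.05, and these are 10 HFoleic points, all to the right of 0, and no HFepa point.

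At the entry to the ER, the 6 signal recognition particle genes were all higher in HFoleic by sign (median log2 change 0.13), but none passed the test. Srp14, which helps pause translation, had the smallest adjusted p (log2 change 0.17, adjusted p = 0.0812), and Srp54a, the subunit that binds the signal peptide, differed by 0.22 (adjusted p = 0.24). Srp68, Srp9, Srp19 and Srp72 differed by 0.15, 0.11, 0.08 and 0.08. Of the docking receptor, Srprb differed by 0.20 (adjusted p = 0.238), whereas Srpr had one of the 5 smallest changes of all members (-0.02 ± 0.0981 SE).

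The Sec61 channel, through which chains enter the ER, rose in 2 of its 5 genes. The log2 signal of Sec61b, the small beta subunit, read by a probe at chr4:47495923-47495982 (mm9, as for all probe positions here), lay between 13.37 and 13.91 in reference mice (median 13.70), between 13.87 and 14.35 in HFoleic mice (median 14.09) and between 13.65 and 13.99 in HFepa mice (median 13.82). Thus 7 of 8 HFoleic mice were above every reference mouse, and 3 of 7 HFepa mice were too. Sec61b rose by 0.42 on the log2 scale in HFoleic (SE 0.0769, 1.33-fold, adjusted p = 0.00234), and its other probe also passed the test (0.39). On that dimmer probe all 8 HFoleic mice (12.94 to 13.57) were above every reference mouse (12.70 to 12.92).

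Sec61a1, which forms the pore itself, lay between 13.08 and 13.35 in reference mice (median 13.25), 13.16 and 13.67 in HFoleic mice (median 13.55) and 12.93 and 13.53 in HFepa mice (median 13.31). Again 7 of 8 HFoleic mice exceeded every reference mouse, while HFoleic replicate 6 sat among them. Sec61a1 rose by 0.26 (SE 0.0749, adjusted p = 0.0334), but its dimmer probes gave 0.14 and 0.17 and did not pass. For Sec61g the brightest probe gave 0.11 (adjusted p = 0.419) and the other 0.30 (adjusted p = 0.018), so the probes of this gene disagreed. The partners Sec62 and Sec63, which serve post-translational entry, differed by 0.05 and 0.14 and did not pass.

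In the TRAP complex, which sits beside the channel, Ssr3 rose (probe at chr3:65183796-65183855). Its log2 signal lay between 12.66 and 12.99 in reference mice (median 12.88), 12.88 and 13.32 in HFoleic mice (median 13.17) and 12.77 and 13.08 in HFepa mice (median 12.90). All HFoleic mice except replicate 6 were above the reference range. The change was 0.28 (SE 0.0583, 1.21-fold, adjusted p = 0.00549), and both probes passed. Ssr1 lay between 11.74 and 12.10 in reference mice (median 11.94), 11.86 and 12.33 in HFoleic mice (median 12.18) and 11.81 and 12.08 in HFepa mice (median 12.02). In HFoleic, 5 of 8 mice exceeded every reference mouse, but the change of 0.20 did not pass (adjusted p = 0.063). Ssr2 and Ssr4 differed by 0.15 and 0.03.

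Signal peptidase, which removes the signal peptide, rose in 2 of its 5 genes. Sec11a, a catalytic subunit (probe at chr7:88060647-88060706), lay between 11.40 and 11.87 in reference mice (median 11.82), 11.89 and 12.24 in HFoleic mice (median 12.03) and 11.73 and 11.98 in HFepa mice (median 11.93). Read from brightest probes, it was the only tested member whose HFoleic and reference mice did not overlap. Of all tested genes, 0.337% were higher without overlap. The dimmer probe of Sec61b did not overlap either. For Sec11a, 5 of 7 HFepa mice also lay above every reference mouse. The HFoleic change was 0.31 (SE 0.0672, 1.24-fold, adjusted p = 0.00638), with both probes called.

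Spcs3, an accessory subunit the enzyme needs, lay between 9.80 and 10.26 in reference mice (median 9.96), 9.95 and 10.67 in HFoleic mice (median 10.26) and 9.70 and 10.07 in HFepa mice (median 9.92). Only 4 of 8 HFoleic mice passed the highest reference mouse, and the groups overlapped. Its change was 0.32 (SE 0.0878, adjusted p = 0.0265). The other catalytic subunit, Sec11c, differed by 0.21 (adjusted p = 0.115), Spcs2 by 0.19 and Spcs1 by -0.03.

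Among the 6 genes of the oligosaccharyltransferase, which transfers the glycan to the chain, Rpn1 rose. It lay between 12.57 and 12.92 in reference mice (median 12.73), 12.60 and 13.39 in HFoleic mice (median 13.07) and 12.54 and 12.96 in HFepa mice (median 12.85). In HFoleic, 6 mice were above every reference mouse and 2 were inside the range, and the change of 0.30 (SE 0.0909) passed narrowly (adjusted p = 0.0462). Stt3a, a catalytic subunit that works on chains still entering the ER, lay between 7.49 and 7.91 in reference mice (median 7.74), 7.75 and 8.24 in HFoleic mice (median 8.05) and 7.50 and 8.11 in HFepa mice (median 7.70). Its HFoleic values fell into 5 mice above the reference range and 3 within it, and the change of 0.25 did not pass (adjusted p = 0.074). All 4 tested probes of Stt3a were higher by sign, the weakest by 0.03 (adjusted p = 0.944). Ddost differed by 0.20, Rpn2 by 0.03, Stt3b, the other catalytic subunit, by -0.03, and Dad1 by -0.07.

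**Figure D2:**
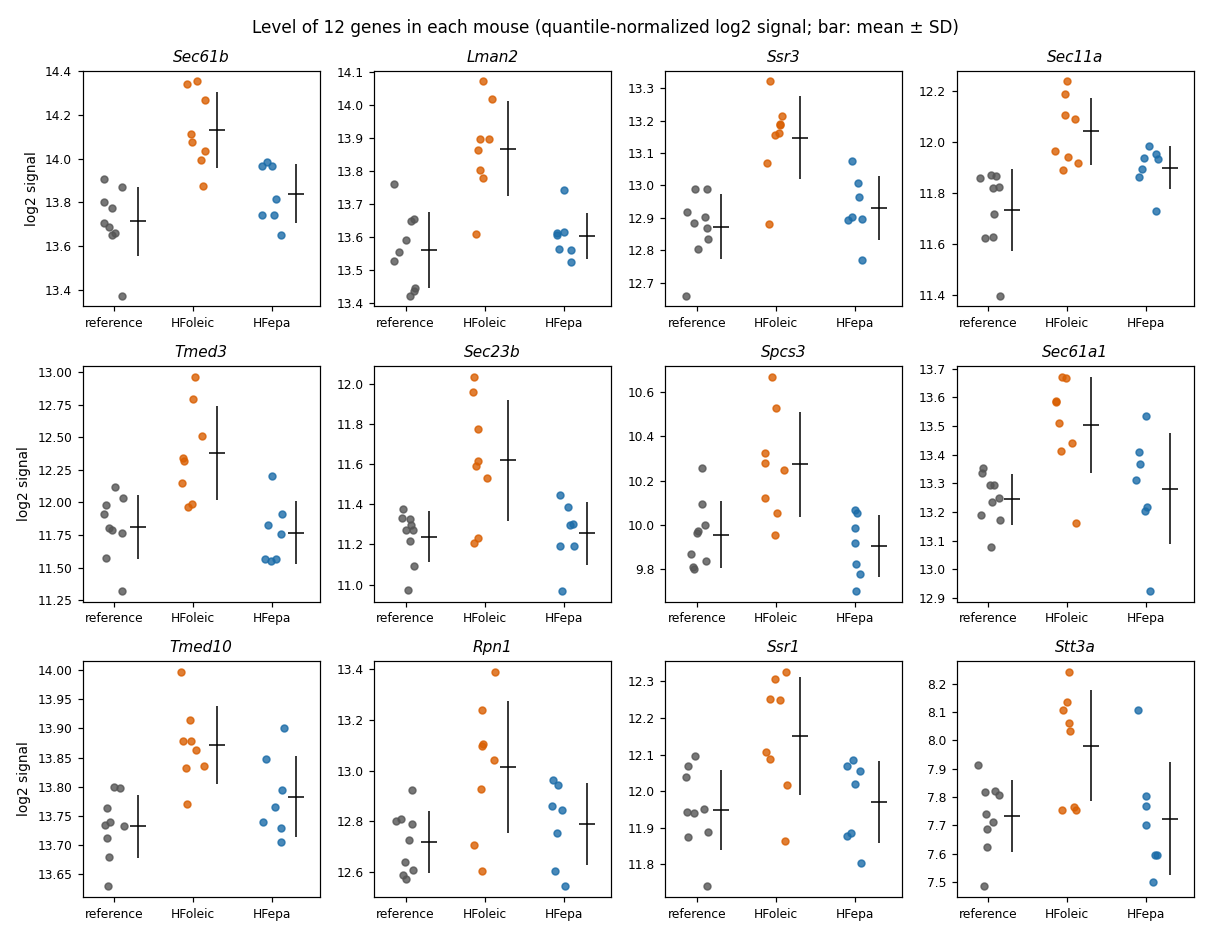
Quantile-normalized log2 signal (y axis) of the 12 genes with the smallest p for HFoleic against reference, 1 point per mouse, with the mean and SD of each group as a bar. Some HFoleic points lie above all reference points in every panel, all 8 of them only for Sec11a, and the HFepa median is below the HFoleic median in each of the 12 panels.

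The COPII coat, which forms the vesicles that leave the ER, rose in 1 of 12 genes. Sec23b (probe at chr2:144416111-144416170) lay between 10.97 and 11.38 in reference mice (median 11.27), 11.21 and 12.04 in HFoleic mice (median 11.60) and 10.97 and 11.45 in HFepa mice (median 11.30). Of the HFoleic mice, 6 were above every reference mouse, while replicates 5 and 6 were below the reference mean. It rose by 0.38 (SE 0.0994, 1.30-fold, adjusted p = 0.0195), though its dim second probe gave 0.05 (adjusted p = 0.826). The call was lost with both probes averaged (0.22, adjusted p = 0.133) and under the methods' own test in place of limma's moderated one (adjusted p = 0.0581). Its paralog Sec23a, the same subunit of the inner coat, had medians of 9.79 in reference, 9.57 in HFoleic and 9.58 in HFepa mice, and all 8 HFoleic mice were below the reference mean. Its change of -0.24 was the lowest of all members and did not pass (adjusted p = 0.0866), so the measured values of these paralogs differed in sign.

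Of the other coat genes, Sec24d and Preb, the exchange factor that starts coat assembly, differed by 0.16 each, Sar1b by 0.08, Sec24a and Sec24c by 0.04, Sar1a by -0.03 and Sec13 by -0.05. Sec24b (-0.02 ± 0.0692 SE), Sec31a of the outer coat (-0.00408 ± 0.0549 SE) and the scaffold Sec16a (0.00 ± 0.057 SE) were among the 5 members with the smallest change. For Sec31a the reference, HFoleic and HFepa mice spanned 12.05 to 12.35, 12.04 to 12.40 and 12.08 to 12.28 (medians 12.25, 12.21 and 12.18). For Sec24b they spanned 9.99 to 10.18, 9.80 to 10.24 and 9.91 to 10.41 (medians 10.07, 10.09 and 10.09), so the 3 groups overlapped for both genes. Sec16a spanned 11.38 to 11.75 in reference and 11.41 to 11.66 in HFoleic mice, but a dimmer probe of this gene was called lower (-0.34, adjusted p = 0.0226), which its brightest probe did not show.

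Of the 8 cargo receptor and SNARE genes 3 rose, with a median over the role of 0.11. Tmed3, a p24 family member that sorts cargo into COPII vesicles (probe at chr9:89594051-89594110), lay between 11.32 and 12.12 in reference mice (median 11.80), 11.96 and 12.96 in HFoleic mice (median 12.33) and 11.55 and 12.20 in HFepa mice (median 11.76). Again 6 HFoleic mice were above every reference mouse, with replicates 1 and 2 highest and replicates 5 and 6 inside the reference range. The change of 0.57 (SE 0.134, 1.48-fold, adjusted p = 0.00979) was the highest of all tested members.

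Lman2, a lectin that carries glycoproteins (probe at chr13:55448142-55448201), lay between 13.42 and 13.76 in reference mice (median 13.55), 13.61 and 14.07 in HFoleic mice (median 13.88) and 13.52 and 13.74 in HFepa mice (median 13.61). All HFoleic mice but replicate 6 were above the reference range. It rose by 0.31 (SE 0.0604, 1.24-fold, adjusted p = 0.00352), although its dimmer probes gave 0.15 and -0.08 and were not called, and the mean of its probes changed by 0.12 (adjusted p = 0.248). Tmed10, a further p24 protein, lay between 13.63 and 13.80 in reference mice (median 13.73), 13.77 and 14.00 in HFoleic mice (median 13.87) and 13.71 and 13.90 in HFepa mice (median 13.77). As for Lman2, 7 of 8 HFoleic mice were above the reference range, and the change of 0.14 (SE 0.0418, adjusted p = 0.0422) passed. Sec22b, a SNARE that fuses ER vesicles with their target, differed by 0.12, but only 1 of its 3 tested probes was higher by sign. Tmed2 differed by 0.11, Lman1, the receptor for clotting factors, by 0.10, Surf4 by 0.09 and Mcfd2, the partner of Lman1, by -0.03.

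On the return route no tested member passed the test. Kdelr1 and Kdelr2, which retrieve ER chaperones from the Golgi, differed by 0.09 and 0.11 (adjusted p = 0.448 and 0.457). The 7 genes of the COPI coat and Arf4 had a median log2 change of -0.01, and 4 of 7 were lower by sign, 2 of them with an unadjusted p under 0.05 (Copb1 and Arf4). Copb1 differed by -0.19 (adjusted p = 0.0837), Arf4, a small GTPase of the Golgi, by -0.17 (adjusted p = 0.141), Copb2 by -0.06, Cope by -0.01 ± 0.0685 SE, Copg1 by 0.04, Copa by 0.05 and Arcn1 by 0.11. For Cope the reference, HFoleic and HFepa mice spanned 11.78 to 12.11, 11.80 to 12.13 and 11.58 to 12.11 (medians 11.97, 11.97 and 11.82). For Srpr the medians were 12.39, 12.46 and 12.29, and the highest mice of the groups were at 12.67, 12.54 and 12.50. Both genes overlapped between all 3 groups.

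The mice of a group differed more than the small changes of single genes would show. In HFoleic mice between 20 and 49 of the 57 members (median 42.5) lay above the mean of the reference mice, with replicates 1 to 4 at 45 to 49 and replicate 6 at 20. In HFepa mice the number ran from 9 to 49 (median 24). In the reference mice, each set against the mean of the other reference mice, it ran from 17 to 49 (median 24). Thus in this count 1 HFepa mouse (replicate 3) and 1 reference mouse (replicate 2) matched the highest HFoleic mouse. The mean log2 level of the members was 12.01 and 11.99 in these 2 mice, while HFoleic mice spanned 11.85 to 12.11. Leaving out HFoleic replicate 6 raised the number of members called from 10 to 13, and leaving out HFoleic replicate 1, HFoleic replicate 2 or reference replicate 1 lowered it to 6.

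**Figure D3:**
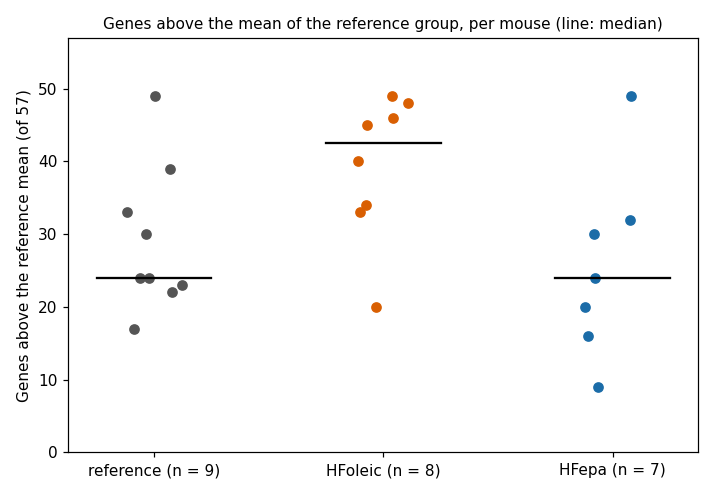
Number of the 57 tested genes above the mean of the reference group (y axis) in each mouse, with the median of each group as a line. Each reference mouse was set against the mean of the other reference mice. The HFoleic median is 42.5 and the medians of both other groups are 24, and each group spans a wide range.

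The second comparison asked how mice of the EPA lineage on the obesogenic diet differed from the reference. No member passed the test (limma, 0 of 57 called, and 4 with an unadjusted p under 0.05, of which 1 was higher), beside a background of 0.391% of tested genes called and 14.0% with an unadjusted p under 0.05. The median log2 change was -0.02 (range -0.18 to 0.17), against 0.00 over all tested genes, and 20 of 57 members were higher by sign, against 50.3% of all genes. Of all genes, 6.99% were higher and 7.01% lower at that unadjusted p. No member separated the groups without overlap, beside 0.0693% of all genes that were higher and 0.0644% that were lower without overlap.

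The 5 members with the smallest p were Arf4 (-0.18, SE 0.0717, adjusted p = 0.244), Sec11a (0.17, SE 0.0697, adjusted p = 0.289), Copb2 (-0.12, adjusted p = 0.359), Sec16a (-0.12, adjusted p = 0.359) and Sec24c (-0.13, adjusted p = 0.371). Arf4 lay between 11.59 and 11.92 in reference mice (median 11.77), between 11.43 and 11.82 in HFoleic mice (median 11.55) and between 11.37 and 11.87 in HFepa mice (median 11.52), with 5 of 7 HFepa mice below every reference mouse. Sec24c lay between 13.52 and 13.87 in reference mice (median 13.67), 13.51 and 13.86 in HFoleic mice (median 13.73) and 13.34 and 13.67 in HFepa mice (median 13.59), all 7 HFepa mice below the reference mean. Copb2 spanned 11.66 to 11.94 in reference mice (median 11.82), 11.63 to 11.81 in HFoleic mice (median 11.76) and 11.49 to 11.90 in HFepa mice (median 11.66), so these groups overlapped. Sec16a, whose reference and HFoleic ranges are given above, had medians of 11.52, 11.54 and 11.40, and its HFepa mice spanned 11.26 to 11.56, 2 of 7 of them below every reference mouse. The 7 genes of the COPI coat and Arf4 were all lower in HFepa by sign (median -0.09), none of them past the test.

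The third comparison asked whether the lineages differed under the obesogenic diet. No member passed the test (limma, 0 of 57), and none of the 20196 tested genes did (0.00%). At an unadjusted p under 0.05, 22 members differed and all were lower in HFepa, beside 5.81% of all genes lower and 4.14% higher. The median log2 difference was -0.10 (range -0.61 to 0.12), against 0.01 over all genes, and 8 of 57 members were higher in HFepa by sign, against 51.9% of all genes. No member separated the lineages without overlap, beside 0.0594% of all genes higher and 0.0792% lower. This comparison uses the same HFoleic arrays as the first, so its values are not independent of those above.

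The 5 members with the smallest p were Tmed3 (-0.61, SE 0.142, 1.53-fold lower in HFepa, adjusted p = 0.141), Lman2 (-0.26, SE 0.0643, adjusted p = 0.175), Spcs3 (-0.37, SE 0.0935, adjusted p = 0.184), Sec61b (-0.29, SE 0.0819, adjusted p = 0.226) and Ssr3 (-0.22, SE 0.0621, adjusted p = 0.231). For each of these 5 genes, whose levels are given above, 7 of 7 HFepa mice were below the HFoleic mean. For Tmed3, 6 of 7 HFepa mice lay below every HFoleic mouse, for Lman2, Spcs3 and Sec61b 4 of 7 did, and for Ssr3 only 1 of 7. Since no adjusted p passed, a difference between the lineages was not shown for any member, which does not show that they were alike.

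Within the slides, each of which held all 3 groups, the median member change of HFoleic against reference was 0.16, 0.05 and 0.06 on slides 1, 2 and 3, and that of HFepa against HFoleic was -0.13, -0.06 and -0.16. The HFepa change against reference was 0.03, 0.01 and -0.10, so its sign differed between slides. In rows 1 and 2 of the slides the HFoleic change was 0.12 and 0.07, and that of HFepa against HFoleic was -0.09 and -0.14. The HFepa change against reference was 0.04 and -0.08 there, so its sign also differed between rows.

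Values that moved with the groups stand beside these results. A clock score, the mean of 4 tested clock genes of the Bmal1 phase minus that of 7 of the Per phase, was 0.06 ± 0.638 (SD, n = 9) in reference mice. It was -0.95 ± 0.659 (SD, n = 8) in HFoleic mice, and HFepa mice had -0.59 ± 1.09 (SD, n = 7). With this score as a covariate 9 members were called higher, 8 of them among the 10 above and the other Ssr1, with a median change of 0.12 over the members. Over all probes the calls went from 1215 higher (4.05%) among 2171 in either direction (7.23%) to 342 higher and 238 lower. The mean log2 level of 10 hepatocyte markers was 16.86 ± 0.0763 (SD, n = 9) in reference mice, 16.66 ± 0.0706 (SD, n = 8) in HFoleic mice and 16.77 ± 0.0942 (SD, n = 7) in HFepa mice. Of these markers 3 of 10 fell in HFoleic, namely the urea cycle enzyme Cps1, the gluconeogenic enzyme Pck1 and the tyrosine aminotransferase Tat. The other 7 were not called. Over the 10 markers the median log2 change in HFoleic was -0.01, and 3 were higher by sign. The part of these markers in the results was not tested.

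Other secretory cells carry much of the same machinery. Of 10 exocrine pancreas markers, 4 were tested and Cpa1 was well above background on no array, and the mean log2 level of the tested ones spanned 7.86 to 8.28 in HFoleic, 7.79 to 8.41 in reference and 7.98 to 9.00 in HFepa mice. Of 7 plasma cell markers, 3 were tested, and their mean level spanned 7.70 to 8.10 in HFoleic, 7.93 to 8.68 in reference and 7.72 to 8.16 in HFepa mice. Of these 3 markers limma called only Sdc1, lower in HFoleic (-0.75, adjusted p = 0.000367) and in HFepa (-0.54, adjusted p = 0.0283) against reference. The other 2 were not called in either comparison. Which cells gave the Sdc1 signal was not tested. All 4 tested pancreas markers were higher in HFepa than in HFoleic by sign, 0 of them called by limma and 1 with an unadjusted p under 0.05. The part of these cells in the results was not tested.

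Other genes of the same pathway were written as lists of 118 genes. Of 115 tested, 12 rose and 3 fell in HFoleic, beside 8.07% of all tested genes called in either direction, with a median log2 change of 0.04. In the assembly and transfer of N-glycans 6 of 32 genes rose, with a median over the list of 0.13. Gmppb, which makes the GDP-mannose used to build the glycan, rose by 0.70 (SE 0.122, adjusted p = 0.00162), Ostc, a subunit of the Stt3a form of the oligosaccharyltransferase, by 0.54 (SE 0.102, adjusted p = 0.00294), the glucosyltransferase Alg6 by 0.40, Tmem258, a further oligosaccharyltransferase subunit, by 0.37, and Dpm3, part of the dolichol-mannose synthase, by 0.20. Uggt1, which reglucosylates misfolded glycoproteins and so returns them to the lectin chaperones, rose by 0.44 (SE 0.0722, adjusted p = 0.0011).

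Transport genes went both ways. Tfg, which organizes COPII vesicles at ER exit sites, rose by 0.33, whereas the p24 family members Tmed5 and Tmed4 fell by 0.71 (SE 0.121, adjusted p = 0.00139) and 0.36 (SE 0.0758, adjusted p = 0.00535), opposite to Tmed3 and Tmed10 of the same family. Of 36 tested genes of ER to Golgi transport 1 rose and 2 fell, of 17 of Golgi to ER transport 3 rose, of 9 of N-glycan trimming 2 rose, and of 21 of translocation and membrane insertion 1 fell. That gene was Get4 (-0.22, adjusted p = 0.0102), which acts in the insertion of tail-anchored proteins. In HFepa against reference 0 of 115 were called by limma, beside 0.391% of all genes. At an unadjusted p under 0.05 there were 15 of 115, beside 14.0% of all genes. In HFepa against HFoleic 0 of 115 were called, beside 0.00% of all genes. At that unadjusted p there were 29 of 115, beside 9.96% of all genes.

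The 28 genes of ER chaperones, disulfide isomerases and ER-associated degradation changed more. Of these, 21 rose in HFoleic, beside 4.52% of all genes, with a median log2 change of 0.58 against 0.11 for the 57 members. In HFepa against reference 0 were called (median 0.18), and 3 had an unadjusted p under 0.05, beside 14.0% of all genes. Against HFoleic all 28 were lower in HFepa by sign, 20 of them with an unadjusted p under 0.05 and 0 called by limma, with a median of -0.34. Of all genes, 5.81% were lower at that unadjusted p. The lists were chosen with earlier results of these data known, so the counts are descriptions.

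**Figure D4:**
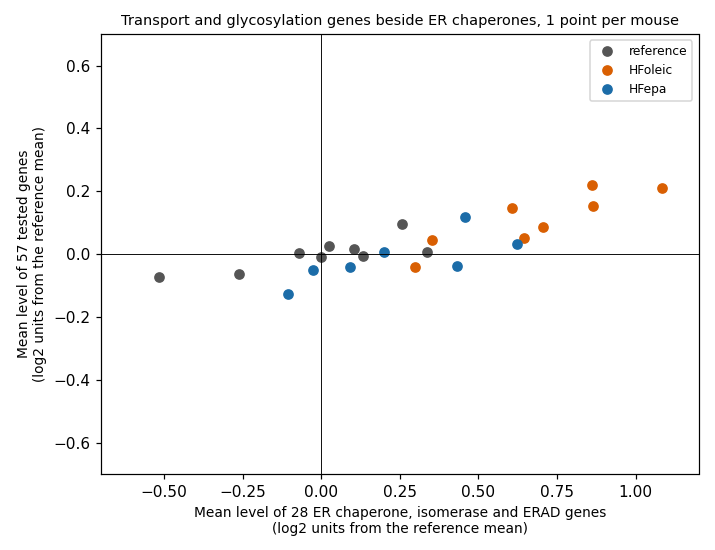
Mean log2 level of the 57 tested genes (y axis) against that of 28 ER chaperone, isomerase and degradation genes (x axis), both as the difference from the mean of the reference mice, 1 point per mouse, on equal scales. HFoleic points lie to the right, at mean chaperone levels of 12.27 to 13.06 against 11.46 to 12.31 in reference mice, and spread far less along the y axis.

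Promoters were read where RefSeq gave them, because factors of the unfolded protein response bind short known elements. A window from 250 bases before to 50 bases after the gene start (GRCm38.p6) was held for 48 of 58 members. The ER stress response element (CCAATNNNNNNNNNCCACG, on either strand) was in 0 of 48 member windows, beside 0.137% of 27025 genes with a window and 10 of 24 chaperone genes (41.7%). Its second form, ERSE-II (ATTGG and CCACG with 1 base between), was also in 0 of 48, beside 0.0444% of all genes. The core bound by XBP1 or ATF6 (TGACGTGG), which shares CCACG on its other strand with both elements, was in 5 of 48 (10.4%), beside 0.714% of all genes.

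These 5 members were Sec23a, Sec24d, Kdelr3, Copb1 and Copb2, and none was among the members called in HFoleic, of which 8 of 10 had a window. The shared letters CCACG, searched on their own after the result for the longer motifs had been seen, were in 33 of 48 member windows (68.8%), beside 35.5% of all genes, 60 of 100 other pathway genes and 23 of 24 chaperone genes (95.8%). Among the members, 6 of 8 called and 26 of 39 not called held them. A match is a description of the letters and not of binding, and no match says only that they are not in the window.

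The 150 bases before the start are shown for the 3 members whose core lies wholly there, with the core in capitals. On the strand of the gene it reads TGACGTGG in Sec24d and its reverse complement, CCACGTCA, in Kdelr3 and Copb1. Then follow Tmed3 and Sec61b, the called members with the largest change, which hold none of the 3 motifs. This choice was made after their values were seen. The stretches are chr3:123267346-123267495 (Sec24d, + strand), chr15:79516258-79516407 (Kdelr3, + strand), chr7:114254681-114254830 (Copb1, - strand), chr9:89705044-89705193 (Tmed3, - strand) and chr4:47474511-47474660 (Sec61b, + strand), all GRCm38.p6 and written 5′ to 3′ on the strand of the gene.
Sec24d: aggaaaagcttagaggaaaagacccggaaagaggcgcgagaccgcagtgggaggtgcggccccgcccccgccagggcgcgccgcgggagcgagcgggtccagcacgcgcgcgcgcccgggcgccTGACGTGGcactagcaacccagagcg
Kdelr3: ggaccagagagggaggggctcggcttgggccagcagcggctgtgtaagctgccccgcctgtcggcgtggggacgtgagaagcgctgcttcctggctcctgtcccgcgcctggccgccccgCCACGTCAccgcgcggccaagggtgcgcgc
Copb1: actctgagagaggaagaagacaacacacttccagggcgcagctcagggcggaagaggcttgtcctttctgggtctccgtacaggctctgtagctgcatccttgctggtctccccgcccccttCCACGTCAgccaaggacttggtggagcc
Tmed3: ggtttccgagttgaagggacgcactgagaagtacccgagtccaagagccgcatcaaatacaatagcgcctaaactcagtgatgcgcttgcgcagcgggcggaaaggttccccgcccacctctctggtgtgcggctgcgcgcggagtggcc
Sec61b: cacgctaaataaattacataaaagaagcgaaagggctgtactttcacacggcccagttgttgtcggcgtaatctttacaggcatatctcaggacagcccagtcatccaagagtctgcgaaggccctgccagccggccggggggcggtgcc

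The core lay at bases -26 to -19 from the start in Sec24d, -30 to -23 in Kdelr3 and -28 to -21 in Copb1. Of these, Sec24d and Copb1 were not called (log2 change 0.16 and -0.19) and Kdelr3 was not tested. For Tmed3 and Sec61b, the members with the largest rise, the 150 bases held none of these motifs. The letters CCACG occurred 2 times in the whole window of Tmed3, outside the printed bases, and 0 times in that of Sec61b.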

How the data were processed

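Total RNA of whole liver was hybridised to Agilent SurePrint G3 Mouse GE v2 arrays in a single colour, 24 mice on 3 slides. Per the file headers, the scanned intensity values are spot brightness read by Agilent Feature Extraction 10.10.1.1, with marks for spots well above background, outliers and saturation. A second table, deposited by the authors, holds log2 values (32176 probes, 2550 empty cells) made by their own filter and quantile normalization, used as an alternative only, and its filter is not given in the sources used here. Intensities limit precision through the number of arrays, not through depth.

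From the scanner files, log2 median signals without outlier spots were averaged per probe. A probe was kept where 75% or more of the arrays in any 1 group marked it as well above background. The kept probes were then quantile normalized. Groups were compared with limma 3.58.1 (R 4.3.3), all 24 arrays in 1 model, with Benjamini-Hochberg adjustment over 30007 probes and a threshold of 0.05. The fit was also run on simulated data with independent probes. The changes put in were larger than the median member change, so that run does not bear on changes of that size. A gene was read from its brightest tested probe. Other probes were compared with it.

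The members, gene lists and tests were chosen with earlier results of these data known. Levels were given for the 12 members with the smallest p in HFoleic (10 of them called), the 5 with the smallest p in each other comparison, and the 5 with the smallest change in HFoleic. Of the other pathway genes the 10 with the smallest p were named. Other members were given by role. The search for CCACG and the choice of printed promoters were made after values were seen, since no called member held a motif. Labels do not say whether mice shared litters, so p-values measure the spread between these mice. Promoter windows came from RefSeq (GRCm38.p6), and probe positions from the array design (mm9).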

Additional observations from a re-analysis of the deposited data

Results flagged for a closer look

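Within-group spread was examined in 63 groups of mice over 20 genes and the mean of the members, and 3 held a mouse whose gap to the rest was large for its group, where chance alone gives about 1 in 20. Sec61b was 13.37 in reference replicate 1, against 13.65 to 13.91 in the other reference mice, and the HFoleic change of this gene passed the test with and without that mouse. Lman2 was 13.74 in HFepa replicate 5, against 13.52 to 13.61 in the other HFepa mice. Srpr was 12 in HFoleic replicate 6, against 12.31 to 12.54 in the other HFoleic mice, and it was the same mouse that had the fewest members above the reference mean in its group.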

How the results depend on the processing

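The number of members called in HFoleic against reference was 10. Without a filter on dim probes, which adds probes to the adjustment, it was 6. Leaving out each of 24 arrays in turn gave 6 to 13, the lowest without HFoleic replicate 1, HFoleic replicate 2 or reference replicate 1 and the highest without HFoleic replicate 6. The other processing alternatives gave 7 to 12, the methods' t-test after adjustment 7 and the slide row as a block 12, which added Stt3a and, as a lower call, Sec23a. Sec61b, Ssr3, Sec11a and Tmed3 were called under all 11 processing alternatives and all 24 leave-outs. When all probes of a gene were averaged, Lman2 (0.31 to 0.12, adjusted p = 0.248) and Sec23b (0.38 to 0.22, adjusted p = 0.133) lost their calls. So did Sec61a1 (0.26 to 0.19, adjusted p = 0.0571). Sec23b also lost its call under the methods' t-test (adjusted p = 0.0581). Rpn1 lost its call in 7 of 11 processing alternatives, the deposited table among them, and in 17 of 24 leave-outs. Tmed10 lost it in 5 and 13, Sec61a1 in 4 and 7, and Spcs3 in 3 and 4. Among 27 named changes none of the called ones reversed. In both other comparisons 0 members were called under all alternatives and leave-outs. The cause of these losses was not tested. The median member change lay between 0.0865 and 0.129 in HFoleic against reference over the leave-outs. Replicate numbers did not pair the mice (correlation of deviations -0.298 to 0.348, above 0.1 in 3 of 22 pairs). With a replicate block 7 members were called, and 10 of the other pathway genes in place of 15.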
